A study of Sus scrofa with 6 samples.

Results

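Nucleolar and ribosome assembly proteins of the pig embryo were followed through 36 genes, chosen by name: a row of the expression table was taken when its best protein match was described with the words small nucleolar, nucleolar protein, ribosome biogenesis, rRNA-processing or ribosomal RNA-processing. The rule found 47 of 20523 rows, and it uses no measured value. Of the 36 genes 35 passed the filter on low counts, and the row with the most reads stood for a gene with several rows. NOL4, a protein named for the nucleolus, did not pass, with 5, 7 and 3 reads in QQ embryos and 5, 8 and 2 reads in WT embryos. The other 9 rows that did not pass were further rows of TSR2, NOP56, IMP4, NOL12 and BMS1.

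Ribosomes are put together in the nucleolus, where ribosomal RNA is transcribed, modified, folded and cut while ribosomal proteins bind it. The work is done by assembly factors that leave before the ribosome is finished: small nucleolar ribonucleoproteins (snoRNPs) that guide the chemical modification and folding of the RNA, a large particle called the small subunit processome, and separate sets of factors for the large subunit. Growing embryonic tissue makes ribosomes at a high rate, and these factors are expressed in most of its cells.

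The study compared whole Large White pig embryos of 2 genotypes, collected at 17.5 to 18 days after conception. QQ embryos were homozygous for the 2 VRTN variants (quantitative trait nucleotides) linked to vertebral number, and WT embryos were of the wild-type qq genotype; each embryo was genotyped from its extra-embryonic tissue. There were 3 embryos of each genotype and 1 RNA library per embryo. The labels call the QQ libraries mutant and give no litter or dam, and the genotype is that of the whole animal, not of a chosen tissue. All means, standard deviations (SD) and standard errors below are over 3 embryos per genotype, and values listed for a group follow replicates 1 to 3.

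In units of 1000000, uniquely mapped reads numbered 12.2 to 13.5 per library. WT replicate 3 was unlike the rest: principal component 1 of the log2 values (57.7% of their variance) placed it at 61.7 and the remaining 5 libraries between -30.0 and 9.13. VRTN itself had 2, 0 and 1 reads in QQ embryos and 0 reads in each WT embryo, where a count of 0 allows up to 0.223 to 0.240 CPM (counts per 1000000 reads; 3 reads, counting error only). Markers of the body axis were present: 3 of 5 somite markers had a row (MEOX1, TCF15 and PAX1) and summed to 36.4 to 47.5 RPKM (reads per kilobase of transcript per 1000000 reads) in QQ embryos and 34.5 to 42.7 RPKM in WT embryos. Summed markers of heart were 255 to 330.3 RPKM in QQ embryos and 312 to 449 RPKM in WT embryos (2 of 4 with a row). Most of the heart sum was MYL7, while NKX2-5 had 13.0, 18.5 and 21.2 RPKM in QQ embryos, against 11.6, 15.9 and 14.7 RPKM in WT embryos. Markers of yolk sac endoderm summed to 17.4 to 434 RPKM in QQ embryos and 11.3 to 194 RPKM in WT embryos (2 of 4), and those of trophoblast to 16.5 to 95.8 RPKM in QQ embryos and 18.0 to 20.9 RPKM in WT embryos (4 of 5). The highest trophoblast sum was that of QQ replicate 1, where PLET1 alone had 79.5 RPKM, against at most 6.89 RPKM in any other library. Red blood cell markers (4 of 6), the neural tube marker OLIG2 (1 of 4) and the immune cell marker LYZ (1 of 3) reached at most 7.06, 1.82 and 0.185 RPKM in QQ embryos and 12.9, 1.97 and 0.363 RPKM in WT embryos. For each of these lists the ranges of the genotypes overlapped. The part that tissue make-up plays in the results below was not tested. In whole embryos, fewer cells of a type and less RNA per cell cannot be told apart.

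No assembly gene passed the test between the genotypes. The edgeR quasi-likelihood test, with Benjamini-Hochberg adjustment over 13957 rows, called 0 of the 35 genes and 0.0% of all tested rows in either direction. At an unadjusted p under 0.05, 14 of the 35 genes (40.0%) had lower values in QQ embryos, where 9.29% of all tested rows did, and 1 gene (2.86%), NOL8, had higher values, where 11.0% of all tested rows did. DESeq2 called 1 gene, RRP9, as lower in QQ embryos, against 0.0573% of all tested rows, and 0 genes as higher, against 0.738% of all tested rows. limma on log2(RPKM + 0.5) called 0 genes; at an unadjusted p under 0.05 it had 5 genes lower and 2 higher, where 4.59% and 15% of all tested rows were. The 14 genes spanned the roles: RRP9 of the box C/D class, NOP14, UTP14A, RRP7A, BMS1 and NOL6 of the small subunit processome, TSR2 and TSR3 of late small subunit assembly, NOP2, NOP16, EBNA1BP2 and NOL12 of large subunit assembly, and the nucleolar proteins LYAR and ZCCHC17. Their adjusted p (edgeR) lay between 0.233 and 0.243.

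The differences were small and mostly in 1 direction. Log2 fold changes (QQ over WT) ran from -0.66 to 0.46 with a median of -0.14, where the median over all tested rows was -0.003, and 25 of the 35 genes (71.4%) were below 0, where 50.3% of all tested rows were. Scaling mattered for the signs: in limma fits on RPKM without further scaling, 19 genes were below 0 and 16 above. The median of the 35 genes was then -0.04 and the median over all rows 0.08, so the genes still lay below all rows. In RPKM, all QQ embryos lay below all WT embryos for 10 genes (28.6%), where 9.07% of all tested rows did, and above all WT embryos for 0 genes, where 18.8% of all tested rows did. Set against WT replicates 1 and 2 alone, all QQ embryos were lower for the same 10 genes, where 10.8% of all tested rows were. They were higher for 0 genes, where 21.2% of all tested rows were. Genes below all WT embryos are below these 2 as well, so the 10 could not drop out. The genes of a set are not independent of each other, and no test of the set as a whole was made.

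The count of 14 depended on which embryos were in the fit. It was 8 without QQ replicate 1, 2 without QQ replicate 2, 4 without QQ replicate 3 and 9 without WT replicate 2, where 10.4%, 3.05%, 2.7% and 11.0% of all tested rows had lower values at the same p. It fell least without WT replicate 1, where 8.33% of all tested rows did. Without WT replicate 3, the library that stood apart, it was 7, where 5.19% of all tested rows did: RRP9, NOP14, UTP14A, NOL6, NOP2, NOP16 and TSR3. NOL8 also lost its place without WT replicate 3, leaving 0 genes higher, where 8.58% of all tested rows were. The count of higher genes was likewise 0 without QQ replicate 2, QQ replicate 3 or WT replicate 1, where 5.56%, 5.02% and 9.89% of all tested rows were higher, and 2 without WT replicate 2, where 14.6% were.

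**Figure D1:**
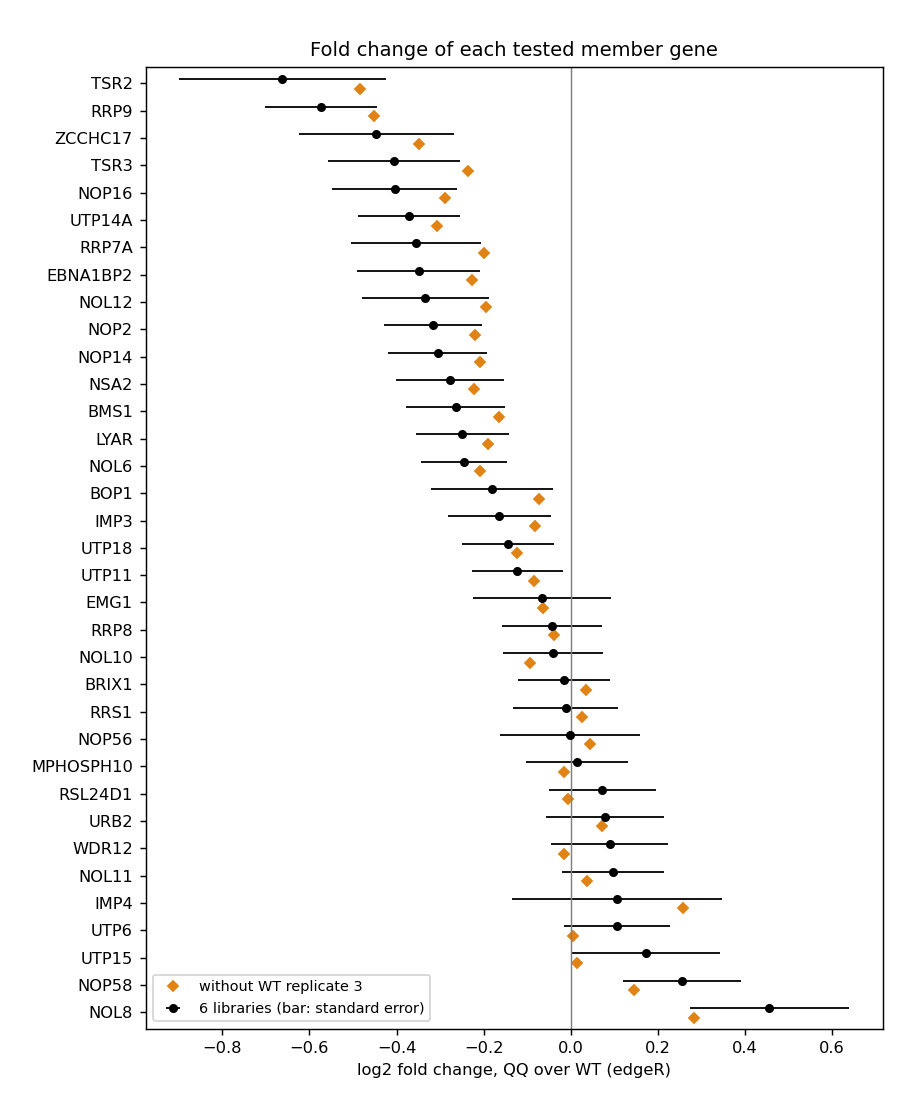
Log2 fold change of each of the 35 tested genes, QQ over WT, from edgeR. Black points are fits of all 6 libraries with bars of 1 standard error, and orange diamonds are fits without WT replicate 3; TSR2 is lowest at -0.66 and NOL8 highest at 0.46, and most diamonds lie closer to 0. The signs of genes near 0 (BRIX1, NOP56, IMP4, MPHOSPH10, NOL10, EMG1, RRP8, RRS1, RSL24D1 and URB2) flipped under at least 1 other scaling.

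The box C/D snoRNPs, in which the methyltransferase fibrillarin (FBL) works with NOP56, NOP58 and SNU13 to methylate ribosomal RNA, and the U3 snoRNP, which carries RRP9 and folds the precursor of small subunit RNA, showed both directions. RRP9, the protein specific to U3, had 45.3, 43.9 and 42.3 RPKM in QQ embryos, against 55.7, 58.3 and 68.8 RPKM in WT embryos. Every QQ embryo lay below every WT embryo, the QQ embryos lay close together, and WT replicate 3 was highest. RRP9 averaged 43.8 ± 1.48 RPKM in QQ embryos and 60.9 ± 6.90 RPKM in WT embryos (SD), a log2 fold change of -0.57 ± 0.13 (standard error; edgeR adjusted p = 0.233), and of -0.45 without WT replicate 3. The DESeq2 adjusted p was 0.0389, and over all alternatives tried the adjusted p ranged between 0.0389 and 0.526. RRP9 had been singled out in earlier work on these data for its small p, so its difference is a description.

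NOP58, a core protein of every box C/D particle, had a fold change of the opposite sign. It was the second most abundant of the 35 genes per length, with 142, 158 and 162 RPKM in QQ embryos, against 117, 147 and 98.7 RPKM in WT embryos. WT replicate 2 lay within the QQ range, and WT replicate 3 was lowest. Its log2 fold change was 0.25 ± 0.14 (edgeR adjusted p = 0.297) and 0.15 without WT replicate 3. NOP56, its partner in the core, had 4.05, 6.11 and 5.14 RPKM in QQ embryos, against 4.70, 4.67 and 4.89 RPKM in WT embryos. The WT embryos lay inside the spread of the QQ embryos, and the fold change of -0.002 ± 0.16 changed sign under other scalings. The row was covered by reads over less than 50% of its length in every library, so its level may stand for only part of the gene.

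Fibrillarin, whose description does not hold the words of the rule, had 248, 236 and 238 RPKM in QQ embryos, against 281, 281 and 342 RPKM in WT embryos. All QQ embryos were below all WT embryos and WT replicate 3 was again highest, with a log2 fold change of -0.42 ± 0.13 (edgeR adjusted p = 0.233), or -0.29 without WT replicate 3. SNU13, which binds the RNA first, had 21.4, 19.6 and 18.9 RPKM in QQ embryos, against 19.9, 20.6 and 17.5 RPKM in WT embryos. Its groups overlapped, and its fold change of -0.05 ± 0.14 turned positive in limma on RPKM. Within a library the balance of NOP58 to RRP9 varied: the log2 ratio of their RPKM was 1.65, 1.85 and 1.94 in QQ embryos, against 1.07, 1.34 and 0.52 in WT embryos. The ratio was lowest in WT replicate 3, and also lower in the other WT embryos than in any QQ embryo. This pair was chosen after its values were seen, so no test is attached.

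**Figure D2:**
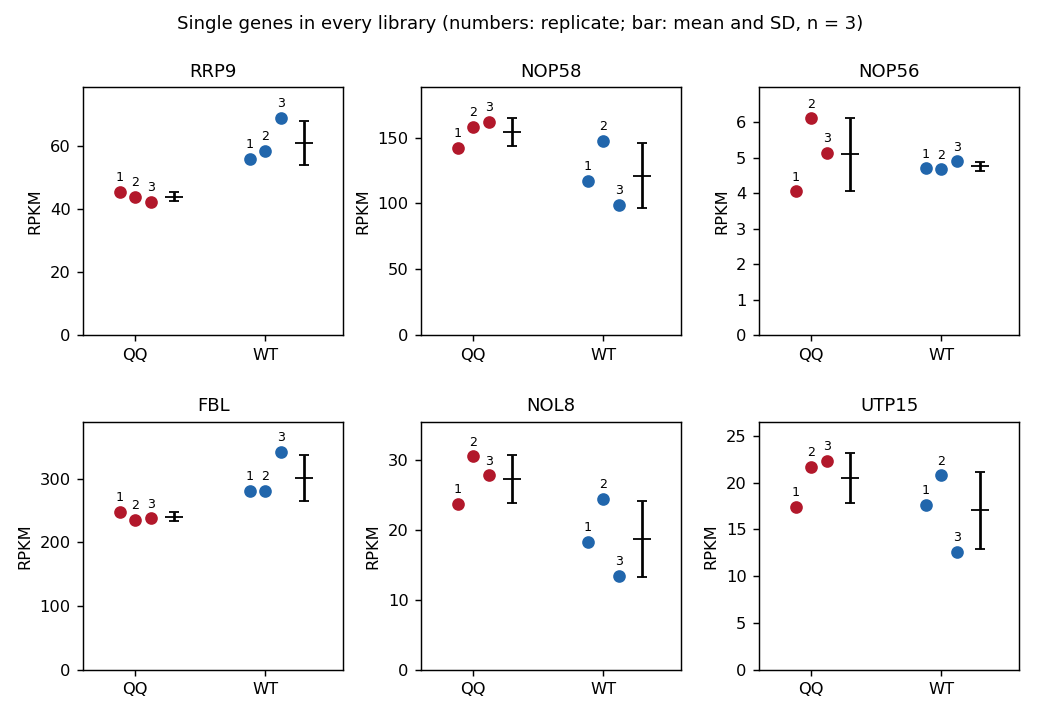
RPKM of 6 single genes in every library, with QQ embryos in red to the left and WT embryos in blue to the right; numbers are replicates and bars are the mean and SD (n = 3). For RRP9 and FBL all QQ embryos lie below all WT embryos and WT replicate 3 is highest, while for NOP58, NOL8 and UTP15 WT replicate 3 is lowest; NOP56 overlaps.

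The small subunit processome contributed 15 genes, with a median log2 fold change of -0.12; 10 (66.7%) were below 0, where 50.3% of all tested rows were, and 5 (33.3%) were lower at an unadjusted p under 0.05, where 9.29% were. The UTP-A complex binds the start of the precursor RNA first and is represented by UTP15 and NOL11. UTP15 had 17.4, 21.7 and 22.3 RPKM in QQ embryos, against 17.7, 20.8 and 12.6 RPKM in WT embryos. The lowest value was WT replicate 3, and the other WT embryos lay within the QQ range; the log2 fold change was 0.17 ± 0.17, and 0.01 without that library. NOL11 had 40.4, 47.9 and 43.7 RPKM in QQ embryos, against 36.8, 44.7 and 34.1 RPKM in WT embryos, with overlapping groups and a log2 fold change of 0.10 ± 0.12. The other measured UTP-A genes, HEATR1, WDR43, WDR75 and UTP4, had log2 fold changes of 0.08 ± 0.13, 0.08 ± 0.12, 0.10 ± 0.11 and -0.20 ± 0.12.

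UTP-B, which joins next, is represented by UTP6 and UTP18. UTP6 had 40.4, 49.5 and 46.9 RPKM in QQ embryos, against 41.6, 44.5 and 32.8 RPKM in WT embryos. WT replicate 3 was lowest again and the rest overlapped; the log2 fold change was 0.11 ± 0.12, and 0.006 without it. UTP18 had 34.5, 38.0 and 36.1 RPKM in QQ embryos, against 34.4, 40.5 and 37.3 RPKM in WT embryos, overlapping, with -0.14 ± 0.11. Of their partners, PWP2, TBL3 and WDR3 had log2 fold changes of -0.31 ± 0.13, -0.28 ± 0.16 and -0.08 ± 0.12, while WDR36 had 0.38 ± 0.17.

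MPHOSPH10, IMP3 and IMP4 form a complex that holds the U3 RNA on its target. MPHOSPH10 had 27.1, 34.7 and 30.2 RPKM in QQ embryos, against 26.9, 32.0 and 26.3 RPKM in WT embryos. IMP3 had 53.1, 57.1 and 56.5 RPKM in QQ embryos, against 52.0, 59.8 and 62.6 RPKM in WT embryos. IMP4 was far less abundant, at 2.38, 2.67 and 1.80 RPKM in QQ embryos, against 1.80, 1.83 and 2.31 RPKM in WT embryos, and its row was covered over less than 50% of its length. For each of the 3 genes the groups overlapped, with log2 fold changes of 0.01 ± 0.12, -0.16 ± 0.12 and 0.11 ± 0.24; the sign flipped under another scaling for MPHOSPH10 and IMP4.

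NOP14 and the methyltransferase EMG1 join the processome together with NOC4L. NOP14 was the most abundant processome gene in the set, with 58.0, 59.3 and 61.4 RPKM in QQ embryos, against 64.3, 66.6 and 75.4 RPKM in WT embryos. All QQ embryos were below all WT embryos, by less than the gap between WT replicate 3 and the other WT embryos, and the log2 fold change was -0.31 ± 0.11 (edgeR adjusted p = 0.233), or -0.21 without WT replicate 3. EMG1 had 30.2, 26.9 and 24.9 RPKM in QQ embryos, against 22.5, 32.0 and 26.0 RPKM in WT embryos, and the groups overlapped fully. NOC4L averaged 20.3 ± 0.318 RPKM in QQ embryos and 24.0 ± 3.36 RPKM in WT embryos (SD), with a log2 fold change of -0.34 ± 0.14.

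UTP14A, the activator of the helicase that takes the processome apart, had 50.5, 46.5 and 43.5 RPKM in QQ embryos, against 54.8, 55.5 and 59.8 RPKM in WT embryos. No QQ embryo reached the lowest WT embryo. It averaged 46.8 ± 3.504 RPKM in QQ embryos and 56.7 ± 2.70 RPKM in WT embryos (SD), a log2 fold change of -0.37 ± 0.12 (edgeR adjusted p = 0.233) and -0.31 without WT replicate 3. BMS1, a GTPase of the particle, had 22.9, 25.3 and 25.0 RPKM in QQ embryos, against 26.4, 25.6 and 30.1 RPKM in WT embryos. NOL6, the counterpart of yeast Utp22, had 17.5, 19.7 and 19.8 RPKM in QQ embryos, against 20.6, 21.1 and 21.4 RPKM in WT embryos. Neither gene's groups overlapped, but the gaps were narrow beside the spread: the log2 fold changes were -0.26 ± 0.11 and -0.24 ± 0.10. RRP7A, which acts beside NOL6, had 26.7, 24.8 and 25.0 RPKM in QQ embryos, against 25.7, 30.0 and 35.6 RPKM in WT embryos. WT replicate 1 lay within the QQ range, and the log2 fold change of -0.36 ± 0.15 was -0.20 without WT replicate 3. UTP11 had 50.2, 51.8 and 48.4 RPKM in QQ embryos, against 50.1, 51.0 and 52.1 RPKM in WT embryos and NOL10, related to yeast Enp2, had 26.8, 29.0 and 30.0 RPKM in QQ embryos, against 26.7, 31.3 and 24.7 RPKM in WT embryos, with overlapping groups in both.

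**Figure D3:**
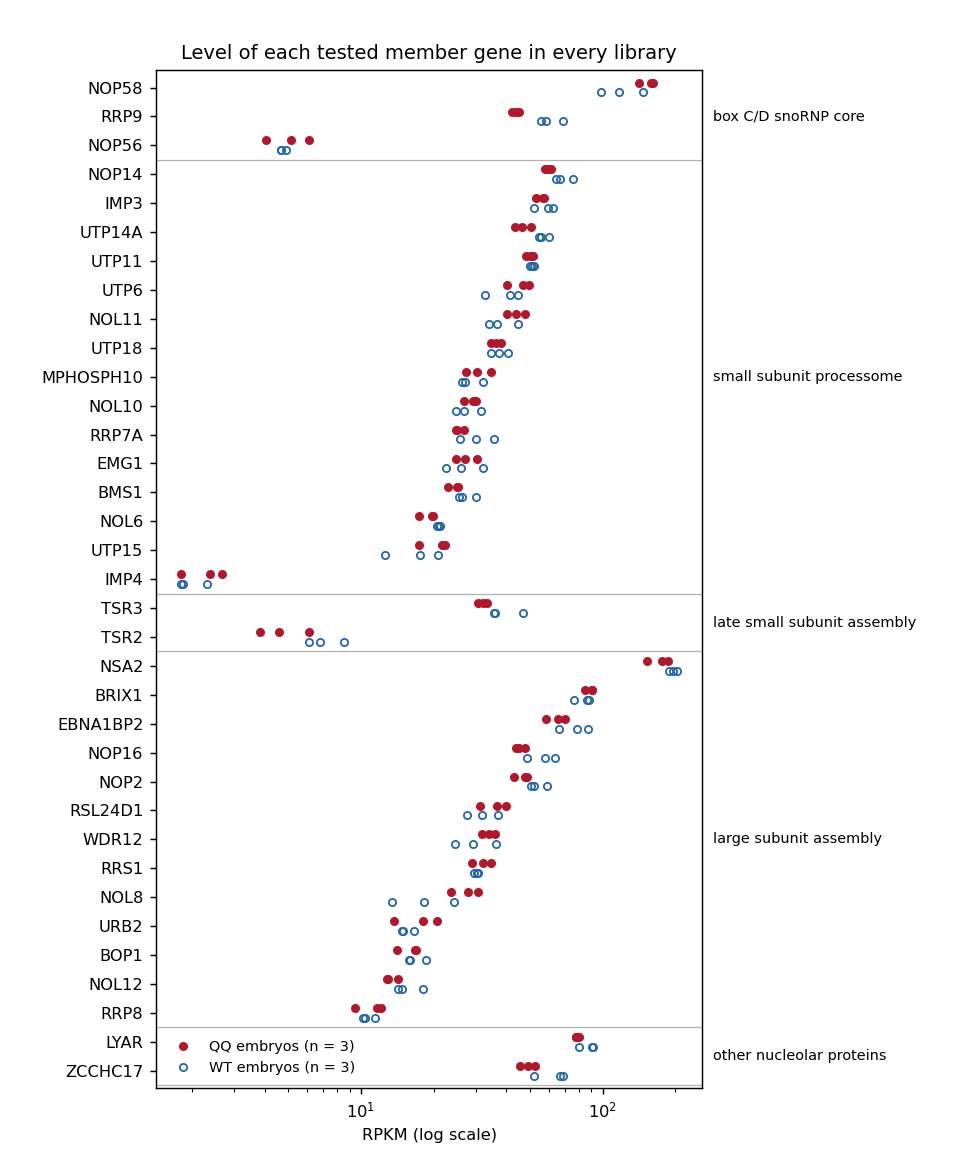
RPKM of each of the 35 tested genes in each library on a log axis, in blocks by role, with QQ embryos as filled red points above WT embryos as open blue points (n = 3 each). Levels run from about 2 RPKM (IMP4) to above 150 RPKM (NSA2), and for most genes the points of the genotypes overlap.

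Late small subunit assembly was represented by TSR2, a chaperone that delivers the ribosomal protein RPS26, and TSR3, an enzyme that modifies the small subunit RNA. TSR3 had 30.5, 33.2 and 32.1 RPKM in QQ embryos, against 35.6, 35.9 and 46.9 RPKM in WT embryos. All QQ embryos lay below all WT embryos, and WT replicate 3 stood well above the rest; the log2 fold change was -0.41 ± 0.15 (edgeR adjusted p = 0.233), and -0.24 without that library. TSR2 had 4.59, 3.83 and 6.13 RPKM in QQ embryos, against 6.79, 6.11 and 8.56 RPKM in WT embryos. QQ replicate 3 reached the WT range, and the log2 fold change of -0.66 ± 0.24 had the widest error of the lower genes. TSR2 is spread over 5 rows of the table, 4 of which did not pass the filter, and the row used here was covered over less than 50% of its length.

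Large subunit assembly contributed 13 genes, with a median log2 fold change of -0.04; 9 (69.2%) were below 0, where 50.3% of all tested rows were. At an unadjusted p under 0.05, 4 (30.8%) were lower, where 9.29% of all tested rows were, and 1 (7.69%) was higher, near the 11.0% of all tested rows. NSA2, a factor of late nucleolar large subunit particles, was the most abundant of all 35 genes per length, with 187, 177 and 152 RPKM in QQ embryos, against 188, 195 and 204 RPKM in WT embryos. QQ replicate 1 almost reached WT replicate 1 and QQ replicate 3 was lowest; the log2 fold change was -0.28 ± 0.12 (edgeR adjusted p = 0.248). BRIX1, a folding factor of early large subunit RNA, had 84.6, 90.7 and 90.4 RPKM in QQ embryos, against 76.5, 87.8 and 86.6 RPKM in WT embryos. Its groups overlapped and its fold change of -0.02 ± 0.11 turned positive in limma on RPKM.

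NOP2, a methyltransferase of large subunit RNA, had 42.99, 48.0 and 48.6 RPKM in QQ embryos, against 50.8, 52.2 and 59.2 RPKM in WT embryos. The QQ embryos were all lower, with a log2 fold change of -0.32 ± 0.11 (edgeR adjusted p = 0.233) and -0.22 without WT replicate 3. NOP16, an early large subunit factor, had 47.9, 43.8 and 45.3 RPKM in QQ embryos, against 48.6, 57.8 and 63.3 RPKM in WT embryos. QQ replicate 1 lay just under WT replicate 1, and the log2 fold change was -0.40 ± 0.14, or -0.29 without WT replicate 3. EBNA1BP2, a binding partner of other large subunit factors, had 65.7, 58.6 and 70.1 RPKM in QQ embryos, against 66.1, 78.3 and 87.0 RPKM in WT embryos, with QQ replicate 3 inside the WT range and a log2 fold change of -0.35 ± 0.14. NOL12, related to a yeast exonuclease that trims precursor RNA, had 13.0, 14.2 and 12.8 RPKM in QQ embryos, against 14.8, 14.3 and 18.1 RPKM in WT embryos. QQ replicate 2 differed from WT replicate 2 by a small fraction of the spread, and the log2 fold change of -0.33 ± 0.15 was -0.19 without WT replicate 3.

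NOL8, a nucleolar RNA-binding protein, had the largest positive fold change of the set. It had 23.7, 30.5 and 27.8 RPKM in QQ embryos, against 18.2, 24.4 and 13.4 RPKM in WT embryos. WT replicate 3 was lowest by far, and WT replicate 2 lay within the QQ range. NOL8 averaged 27.3 ± 3.43 RPKM in QQ embryos and 18.7 ± 5.47 RPKM in WT embryos (SD), a log2 fold change of 0.46 ± 0.18 (edgeR adjusted p = 0.233) and 0.28 without WT replicate 3. A second, shorter NOL8 row had 18.0, 19.6 and 18.5 RPKM in QQ embryos, against 16.3, 18.9 and 19.9 RPKM in WT embryos. That row overlapped between genotypes, and its log2 fold change was -0.08 ± 0.15. The deposited pathway match of both rows names another enzyme, so their identity rests on the protein description.

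BOP1 and WDR12 form the PeBoW complex with PES1, needed to cut the spacer between the large subunit RNAs. BOP1 had 14.1, 16.9 and 16.7 RPKM in QQ embryos, against 15.8, 16.04 and 18.7 RPKM in WT embryos, and WDR12 had 31.9, 36.1 and 34.0 RPKM in QQ embryos, against 29.0, 36.2 and 24.6 RPKM in WT embryos. Both overlapped between genotypes, with log2 fold changes of -0.18 ± 0.14 and 0.09 ± 0.13; that of WDR12 was -0.02 without WT replicate 3. PES1 averaged 27.2 ± 1.55 RPKM in QQ embryos and 33.9 ± 3.95 RPKM in WT embryos (SD), with a log2 fold change of -0.41 ± 0.13. RRS1, which helps load the RNP of the small ribosomal RNA of the large subunit, had 29.0, 34.7 and 32.1 RPKM in QQ embryos, against 29.5, 30.1 and 30.6 RPKM in WT embryos, and RPF2, its partner, averaged 45.6 ± 1.68 RPKM in QQ embryos and 50.5 ± 2.67 RPKM in WT embryos (SD). RSL24D1, a placeholder for the ribosomal protein RPL24, had 31.3, 40.0 and 36.7 RPKM in QQ embryos, against 31.8, 36.8 and 27.4 RPKM in WT embryos. URB2 had 13.7, 18.1 and 20.6 RPKM in QQ embryos, against 14.9, 16.6 and 14.8 RPKM in WT embryos and RRP8, a methyltransferase, had 9.51, 11.7 and 12.1 RPKM in QQ embryos, against 10.17, 11.5 and 10.4 RPKM in WT embryos. In RRS1, RSL24D1, URB2 and RRP8 the groups overlapped.

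LYAR, a zinc finger protein of the nucleolus, and ZCCHC17, a zinc knuckle protein, fall outside these stages. LYAR had 77.4, 78.0 and 80.0 RPKM in QQ embryos, against 79.7, 90.6 and 91.2 RPKM in WT embryos. QQ replicate 3 passed WT replicate 1, and the log2 fold change was -0.25 ± 0.11. ZCCHC17 had 52.6, 45.7 and 49.0 RPKM in QQ embryos, against 52.2, 66.8 and 68.8 RPKM in WT embryos in a row of only 296 bases. WT replicate 1 lay within the QQ range, the log2 fold change was -0.45 ± 0.18, and a second row of 225 bases gave -0.36 ± 0.19.

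RPKM and fold change can differ in sign, since the fold changes use TMM scaling, with factors of 0.933 to 1.06. For 6 genes (BRIX1, RRP8, NOL10, EMG1, RRS1 and NOP56) the mean RPKM was higher in QQ embryos although the log2 fold change was below 0.

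WT replicate 3 was the highest library for more of these genes than any other library. In RPKM it was the highest for 18 of the 35 genes (51.4%), where it was for 25.3% of all tested rows, and the lowest for 9 (25.7%), where it was for 41.4% of all tested rows. QQ replicate 1 was the lowest library for 11 genes, where it was for 12.5% of all tested rows. All 14 genes with lower values in QQ embryos at an unadjusted p under 0.05 had WT replicate 3 as the highest library. Without WT replicate 3 all 14 still had a log2 fold change below 0. For 9 of the 14 every QQ embryo lay below all WT embryos, and so below WT replicates 1 and 2. The 14 were picked by their values in these same libraries, so neither count is a separate check. Of the 10 genes with a positive fold change, 8 had WT replicate 3 as the lowest library in RPKM, where 41.4% of all tested rows of either sign did. These genes too were picked with that library in the fit, so this count is no separate check. Without WT replicate 3, 25 genes were below 0 and 10 above, and the median moved to -0.08, where the median over all tested rows was -0.003.

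In RPKM, the genes with the lowest values in WT replicate 3 were MPHOSPH10, NOL10, NOL11, NOL8, NOP58, RSL24D1, UTP15, UTP6 and WDR12. Their transcripts had a median length of 2475 bases, and those of the genes highest in WT replicate 3 had 1684.5 bases. The same split was not made over all tested rows, so this contrast cannot be called particular to these genes. Over all rows, each library's deviation from the mean had a Spearman correlation with transcript length of -0.05, 0.07 and 0.13 in QQ embryos, and of 0.05, -0.14 and -0.11 in WT embryos. With each library's trend with length removed, 28 of the 35 genes were below 0 and 15 were lower at an unadjusted p under 0.05. The same step moved the median over all rows to -0.07 and the share of all rows lower at that p to 13.0%. Across the 35 genes the Spearman correlation of length with fold change was 0.35, and over all tested rows it was 0.11; these genes share their 6 libraries, and no p is given.

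**Figure D4:**
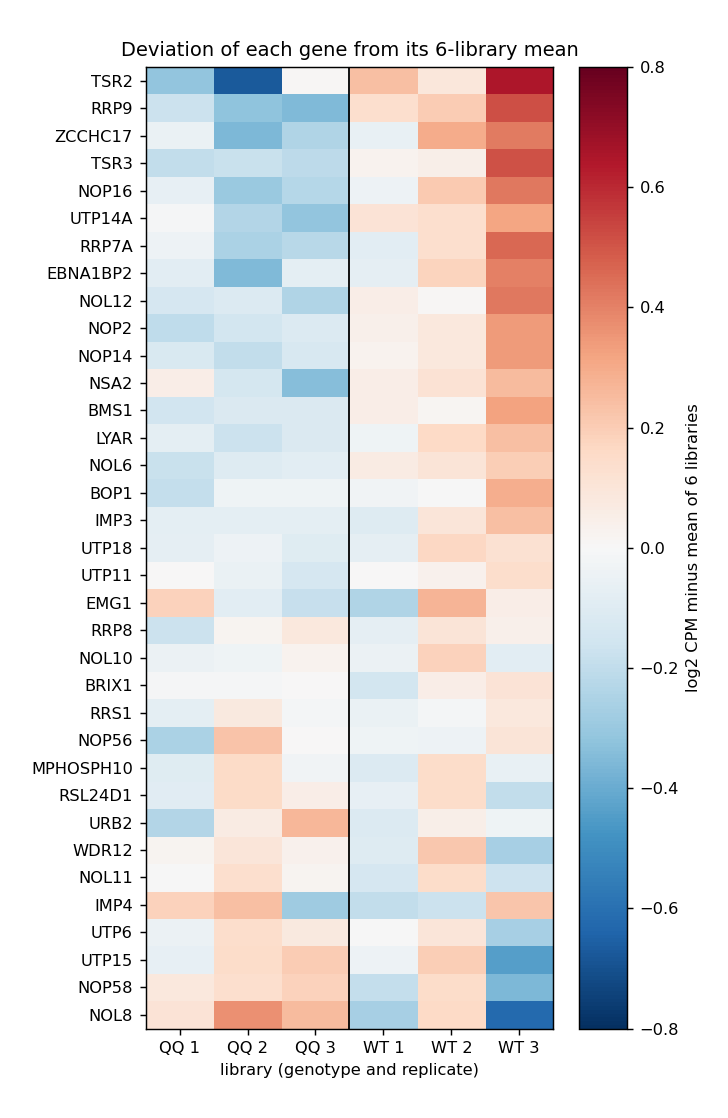
Heat map of log2 CPM (TMM scaled) of each of the 35 genes minus its mean over 6 libraries, with QQ embryos on the left, WT embryos on the right and genes ordered by fold change. WT replicate 3 is the reddest column in the upper rows and the bluest in the lowest rows; the median deviation over the genes was -0.08, -0.05 and -0.08 in QQ embryos and -0.05, 0.12 and 0.20 in WT embryos.

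The share of all reads given to the 36 genes, with NOL4 included, differed little: they took 2875, 3139 and 3073 CPM in QQ embryos, against 2914, 3247 and 3084 CPM in WT embryos. The groups overlapped. Per length, 13 of the 35 tested genes averaged above 50 RPKM over all libraries, 14 were at 20 to 50 RPKM, 5 at 10 to 20 RPKM and 3 below 10 RPKM. Reads covered over 90% of the length in every library for 18 genes, and under 50% in every library for 5 (BMS1, EMG1, IMP4, NOP56 and TSR2). The deposited gene ontology terms placed 30 of the 47 rows in the nuclear lumen, the nucleolus or the preribosome, where 7.76% of all rows carried such a term.

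Other genes known to act in ribosome assembly, whose names do not hold the words of the rule, also had lower values in QQ embryos more often than higher ones. Of 137 such genes with a row, 135 passed the filter. The edgeR test called 0 of them. At an unadjusted p under 0.05, 35 (25.9%) had lower values in QQ embryos and 3 (2.22%) higher, against 9.29% and 11.0% of all tested rows. Of the 135, 99 (73.3%) had a log2 fold change below 0, where 50.3% of all tested rows did. Without QQ replicate 2 the count of lower genes was 10, without QQ replicate 3 it was 15 and without WT replicate 3 it was 23, where 3.05%, 2.7% and 5.19% of all tested rows were lower. WT replicate 3 was the highest library in 32 of the 35 lower genes, which were picked with that library in the fit. The count of higher genes was 5 without QQ replicate 1, 1 without either QQ replicate 2 or QQ replicate 3, and 7 without WT replicate 2, where 10.3%, 5.56%, 5.02% and 14.6% of all tested rows were higher. DESeq2 called 0.

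H/ACA snoRNPs, which convert uridines of ribosomal RNA to pseudouridine, had 2 of 6 genes lower at that p (33.3%, against 9.29% of all tested rows), with a median log2 fold change of -0.31. The core protein NHP2 averaged 42.6 ± 0.743 RPKM in QQ embryos and 54.1 ± 8.71 RPKM in WT embryos (SD), with a log2 fold change of -0.45 ± 0.16, and NOP10 averaged 132 ± 26.2 RPKM in QQ embryos and 163 ± 7.56 RPKM in WT embryos (SD), with -0.40 ± 0.17. GAR1 and the pseudouridine synthase DKC1 had log2 fold changes of -0.22 ± 0.11 and -0.39 ± 0.27, with DKC1 at 1.87 ± 0.495 RPKM in QQ embryos and 2.31 ± 0.385 RPKM in WT embryos (SD) in a row covered over 4.63% to 5.11% of its length. NAF1, an assembly factor of these particles, had 20.3, 26.9 and 27.9 RPKM in QQ embryos, against 19.9, 20.2 and 20.1 RPKM in WT embryos. Every QQ embryo lay above every WT embryo, QQ replicate 1 narrowly, with a log2 fold change of 0.22 ± 0.13 (edgeR adjusted p = 0.343); SHQ1, another assembly factor, had -0.13 ± 0.16. RNA polymerase I and its factors, which transcribe ribosomal RNA, had 2 of 15 lower (13.3%), near the 9.29% of all tested rows, with a median of -0.05. POLR1G, a subunit of that polymerase, had 28.4, 24.7 and 22.7 RPKM in QQ embryos, against 33.1, 32.8 and 39.7 RPKM in WT embryos. All QQ embryos lay below all WT embryos, with a log2 fold change of -0.57 ± 0.15 (edgeR adjusted p = 0.233).

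The RNA exosome and other trimming factors, which shorten precursor ends, had 2 of 17 lower (11.8%), also near the share of all tested rows, with a median of -0.06. EXOSC5, an exosome subunit, averaged 20.1 ± 2.02 RPKM in QQ embryos and 26.8 ± 4.09 RPKM in WT embryos (SD). Box C/D assembly chaperones had 2 of 7 lower (28.6%): RUVBL1, an ATPase that helps load the core proteins, averaged 35.5 ± 1.53 RPKM in QQ embryos and 42.7 ± 4.95 RPKM in WT embryos (SD), and RUVBL2 also passed that p. Nucleophosmin-related NPM3, a histone chaperone of the nucleolus, averaged 191 ± 18.5 RPKM in QQ embryos and 242 ± 23.5 RPKM in WT embryos (SD), with a log2 fold change of -0.44 ± 0.14. These differences did not pass the adjusted test.

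Large subunit factors outside the name rule had 15 of 47 lower (31.9%, against 9.29% of all tested rows), with a median of -0.24, and 0 higher, against 11.0%. NLE1, which prepares the large particle for export, had 34.3, 37.5 and 37.2 RPKM in QQ embryos, against 41.6, 44.4 and 47.3 RPKM in WT embryos. Its groups did not overlap, and the log2 fold change was -0.39 ± 0.11 (edgeR adjusted p = 0.233). Small subunit processome genes outside the rule had 7 of 30 lower (23.3%) and 2 higher (6.67%), with a median of -0.19, and late small subunit genes had 2 of 8 lower (25.0%) and 1 higher (12.5%, near the share of all tested rows), with a median of -0.05. UTP25 averaged 17.1 ± 1.32 RPKM in QQ embryos and 20.1 ± 1.52 RPKM in WT embryos (SD), and BUD23, a methyltransferase of small subunit RNA, averaged 89.3 ± 8.37 RPKM in QQ embryos and 112 ± 13.0 RPKM in WT embryos (SD).

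The 3 higher genes were PDCD11, WDR36 and RIOK3. RIOK3, a kinase on late small subunit particles, had 31.8, 35.04 and 36.3 RPKM in QQ embryos, against 25.1, 28.1 and 14.8 RPKM in WT embryos. WT replicate 3 was far below the rest, and the groups did not overlap. WDR36 averaged 33.5 ± 4.87 RPKM in QQ embryos and 24.2 ± 6.09 RPKM in WT embryos (SD), again with WT replicate 3 lowest. PDCD11 averaged 0.427 ± 0.0638 RPKM in QQ embryos and 0.249 ± 0.0312 RPKM in WT embryos (SD) and its row was covered over 1.68% to 1.8% of its length.

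**Figure D5:**
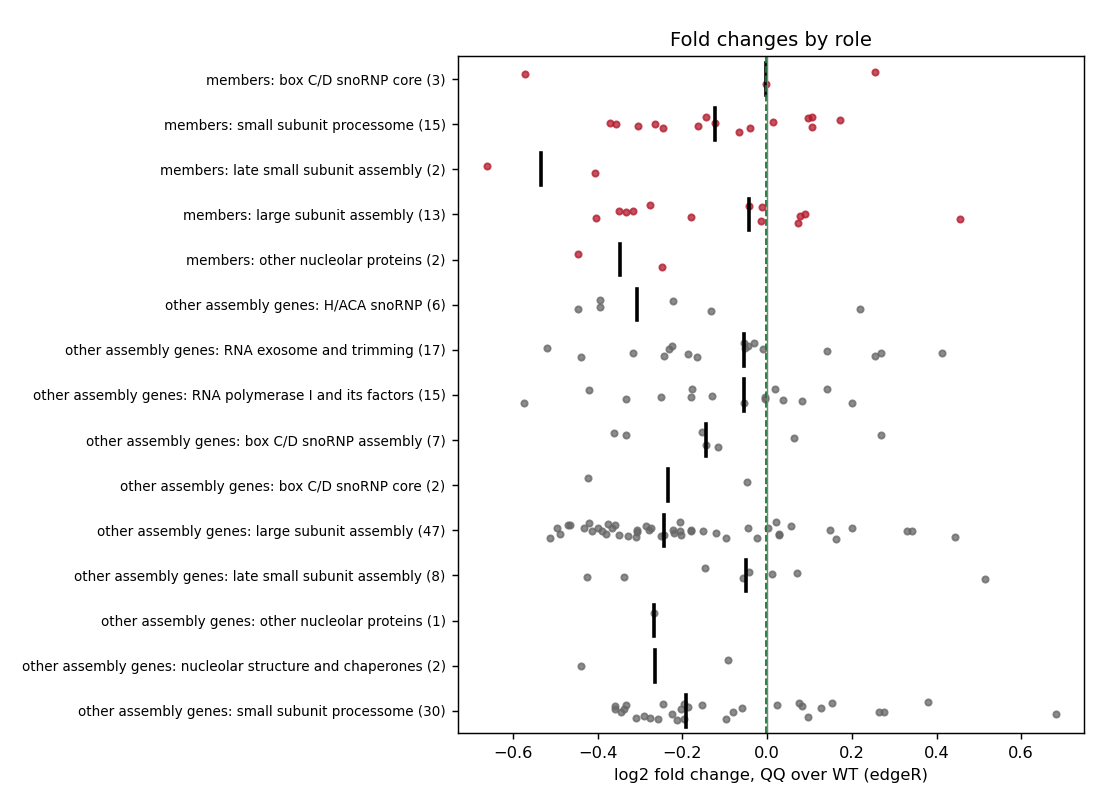
Log2 fold change (QQ over WT, edgeR) of each gene by role, with the name-selected genes in red above the other assembly genes in grey; numbers in parentheses count genes, black bars are medians and the dashed green line is the median of all tested rows. Medians run from -0.53 (late small subunit, 2 genes) to near 0 (box C/D core), and most groups have genes on both sides of 0.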

How the data were processed

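Total RNA of single embryos was made into TruSeq libraries, and reads were placed on Sscrofa 10.2, per the submitters' processing notes; aligner, counting program and strand use: not given in the sources used here, so overlapping genes cannot be told apart. Per the file headers, the deposited table gives, per library and Ensembl transcript, the count of unique reads, an RPKM and the percent of its length under reads. Symbols came from deposited protein matches through RefSeq tables of Sscrofa 11.1 (29 of 47 rows) or from the deposited descriptions. The number of unused sample columns was 0.

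Counts were tested with edgeR 4.0.16 in R 4.3.3 (TMM, minimum count 10, minimum total 15, quasi-likelihood, no covariate, Benjamini-Hochberg threshold 0.05), limma 3.58.1 and DESeq2 1.42.0 serving as alternatives. A fold change is log2 of QQ over WT, and RPKM means are of the deposited values. The fits were tested on simulated data first. At the threshold of 0.05, edgeR recovered 16.4% of simulated 1.5-fold changes and 80.6% of simulated 2-fold changes. The simulation gave all rows the same spread beyond counting error, had no library that stood apart, and changed only rows above a minimum level. Recovery in the real libraries can therefore differ. Tested genes of the set had 329 to 15965 reads over all libraries. The labels give no pairing of embryos by replicate number, and the main fit used none. Named genes followed a rule: RRP9, core snoRNP and MPP10 complex genes, the 5 smallest p in each direction, the 2 highest levels and 2 largest changes per role (mean of at least 1 RPKM), and for other assembly genes the smallest p per role; the rest were named after their values were seen. The members, roles and lists were chosen with earlier results of these data known. P-values measure only the spread between these embryos.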

Additional observations from a re-analysis of the deposited data

How the results depend on the processing

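Across 16 alternative settings, DESeq2 alone called a gene of the set: RRP9, 1 gene lower in QQ embryos, at -0.57 with an adjusted p of 0.0389. Leaving out libraries 1 at a time gave 2 to 11 genes lower and 0 to 2 higher at an unadjusted p under 0.05, and 10 to 37 lower and 1 to 7 higher among the other assembly genes (alternatives for these were added after seeing the data). Over these fits 2.7% to 11.0% of all tested rows were lower and 5.02% to 14.6% were higher. limma on RPKM with pseudocounts of 0.5, 0.1 and 1 gave 5 lower and 2 higher genes (4.49% to 4.61% and 14.7% to 15.1% of all tested rows), 16 lower and 5 higher other assembly genes, and a median of -0.044, -0.045 and -0.044. Quantile normalization gave 10 lower and 2 higher genes (9.77% and 10.1% of all tested rows), and removing the length trend 48 lower and 1 higher other assembly genes (13.0% and 9.04%). The replicate block gave 8 lower genes, where 5.6% of all tested rows were lower, against 14 and 9.29% without it. The labels give no pairing by replicate number. Correlations between equal numbers were -0.19, 0.21 and -0.06, with 1 of 3 embryos best matched by its own. These 3 values are too few to settle whether the numbers pair the embryos. The cause of the shifts between settings was not tested. Among the genes named by the rule, the sign of NOP56 turned with median-ratio size factors, a 2 RPKM minimum and DESeq2 (0.00578, 0.00638 and 0.00577), and in limma (0.075, 0.080 and 0.070). That of BRIX1 turned in limma (0.084, 0.084 and 0.083) and quantile normalization (0.10), and that of SNU13 in limma (0.044, 0.045 and 0.043). IMP4 turned in quantile normalization (-0.034), and MPHOSPH10 with the length trend removed (-0.040). Further genes of the set turned as well: 16 of the 35 were above 0 in limma on RPKM, against 10 in the main fit. Leaving out a library turned the sign of 10 of the 35 genes (6 of the 10 without WT replicate 3). These were EMG1, NOL10, RRP8, RRS1, RSL24D1, URB2 and WDR12, all between -0.191 and 0.233, with NOP56 (range -0.130 to 0.111), BRIX1 (-0.0898 to 0.0345) and MPHOSPH10 (-0.0621 to 0.0924). It also turned SNU13 (-0.137 to 0.00151). With 329 reads over all libraries, the least read gene, IMP4, had the widest counting error.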
